A study of Homo sapiens with 12 samples.

Results

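The 10 genes described here act in antigen processing and presentation: B2M, TAP1, TAP2, TAPBP, PSMB8, PSMB9, HLA-DPA1, CD74, CIITA and NLRC5. Each was taken by its symbol, from probe sets that carry that symbol and no other, and where a gene had several such probe sets the brightest over the 12 arrays was used. All 10 were measured, among 17958 genes in all. The list is one of genes with a shared function, and it was drawn up when earlier results of these arrays were known.

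The arrays came from 231BR cells, a derivative of the human breast cancer line MDA-MB-231 that seeks the brain and here carries EGFP. They were given vehicle or estradiol at 10 nM, and were grown by themselves or beside mouse astrocytes, and EGFP-positive cells were sorted after 24 h of co-culture. The 4 groups, each of 3 arrays, are called vehicle alone and estradiol alone, for the cells without astrocytes, and vehicle with astrocytes and estradiol with astrocytes, for the co-cultures. Any estradiol in the co-culture reached both cell types, the astrocytes were of another species, and nothing in the labels says whether the arrays of a group came from separate cultures, so p-values measure only the spread between these arrays. The title of the series names a paracrine effect of estrogen through astrocytes as its question, and the comparisons that bear on it are estradiol against vehicle in each culture, astrocytes against none under each treatment, and the interaction.

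Class I molecules show peptides from inside the cell to cytotoxic T cells. Proteasomes cut the peptides, and interferon-gamma replaces their constitutive catalytic subunits with the immunoproteasome subunits, among them PSMB8 and PSMB9. The transporter made of TAP1 and TAP2 carries the peptides into the endoplasmic reticulum, tapasin (TAPBP) bridges it to empty class I molecules, and beta-2-microglobulin (B2M) is the light chain of every such molecule. HLA-DPA1 is the alpha chain of a class II molecule, CD74 is the invariant chain that escorts class II molecules, CIITA is the master transactivator of class II genes, and NLRC5 is its relative that acts on class I genes. Epithelial tumour cells usually make class II molecules only when interferon-gamma induces CIITA.

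TAP1 and PSMB9 are neighbours that are read in opposite directions from a shared upstream region, with 487 bases between their nearest starts, and TAP2 and PSMB8 lie beside them on chromosome 6. In the comparison of cultures given below PSMB9 rose and TAP2 fell, so the 250 bases before their starts are shown with those of B2M, TAPBP and HLA-DPA1. The sequences are from RefSeq on GRCh38.p14, 5′ to 3′ on the strand of the gene. The table holds such windows for 8 of the 10 members and none for CIITA and NLRC5. Capitals mark matches, on either strand, to GAAA, any 2 bases and GAAA again (the core of the interferon-stimulated response element), TTCNNNGAA (the gamma-activated site), ATTGG (the inverted CCAAT box) and AGCAAC (the core of the X box of class II promoters).
B2M, chr15:44711267-44711516, plus strand: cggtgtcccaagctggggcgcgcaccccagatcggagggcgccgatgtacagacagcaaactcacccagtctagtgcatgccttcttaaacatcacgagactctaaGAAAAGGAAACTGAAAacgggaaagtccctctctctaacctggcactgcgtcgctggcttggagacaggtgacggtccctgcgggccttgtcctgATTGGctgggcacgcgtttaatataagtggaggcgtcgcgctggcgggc
TAP1, chr6:32853705-32853954, minus strand: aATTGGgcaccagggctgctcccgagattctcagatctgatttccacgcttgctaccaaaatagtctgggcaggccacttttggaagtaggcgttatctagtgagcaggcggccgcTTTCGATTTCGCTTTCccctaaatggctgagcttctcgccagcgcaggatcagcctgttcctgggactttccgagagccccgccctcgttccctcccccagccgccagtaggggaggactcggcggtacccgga
TAP2, chr6:32838740-32838989, minus strand: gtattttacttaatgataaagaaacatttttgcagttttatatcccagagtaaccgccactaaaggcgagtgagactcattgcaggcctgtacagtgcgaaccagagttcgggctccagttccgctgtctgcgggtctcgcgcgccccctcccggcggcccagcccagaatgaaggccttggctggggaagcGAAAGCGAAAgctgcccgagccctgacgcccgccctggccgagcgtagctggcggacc
TAPBP, chr6:33314079-33314328, minus strand: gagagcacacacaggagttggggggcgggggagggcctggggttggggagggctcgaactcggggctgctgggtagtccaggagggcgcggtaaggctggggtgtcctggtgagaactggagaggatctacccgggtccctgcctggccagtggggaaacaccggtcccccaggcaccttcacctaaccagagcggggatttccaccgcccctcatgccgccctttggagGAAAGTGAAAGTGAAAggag
PSMB9, chr6:32853942-32854191, plus strand: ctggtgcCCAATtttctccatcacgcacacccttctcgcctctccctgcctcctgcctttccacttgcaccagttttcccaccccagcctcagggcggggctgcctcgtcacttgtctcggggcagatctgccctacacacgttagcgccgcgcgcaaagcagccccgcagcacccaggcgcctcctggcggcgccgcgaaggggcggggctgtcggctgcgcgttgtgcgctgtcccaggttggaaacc
HLA-DPA1, chr6:33073650-33073899, minus strand: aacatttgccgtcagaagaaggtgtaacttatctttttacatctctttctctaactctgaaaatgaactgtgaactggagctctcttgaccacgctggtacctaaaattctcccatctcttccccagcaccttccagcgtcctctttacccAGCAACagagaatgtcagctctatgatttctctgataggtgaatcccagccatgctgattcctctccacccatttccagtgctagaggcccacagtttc

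The interferon-stimulated core occurs in the windows of B2M, TAP1, TAP2 and TAPBP, 4 of the 11 windows of the 8 members, and in 3.02% of all 35116 windows of this length in the table. TAP1, PSMB8 and HLA-DPA1 have more than 1 start in the table: the window of the other TAP1 start holds a gamma-activated site and no interferon-stimulated core, and that of the other HLA-DPA1 start holds none of the 4 motifs. In B2M, TAP1 and TAPBP it occurs as a pair of overlapping matches, so that the capitals run together. The PSMB9 window holds a CCAAT box and no match to the other 3 motifs, and the HLA-DPA1 window holds the X box core. The TAP1 and PSMB9 windows overlap, and this CCAAT box is the ATTGG marked for TAP1, read on the other strand. The interferon-stimulated cores of TAP1, 119 to 134 bases before its start, lie within the 487 bases between the nearest starts of both genes. They fall outside the PSMB9 window only because it ends at 250 bases. CCAAT boxes occur in 32% of all windows, X box cores in 10.3% and gamma-activated sites in 6.57%. A match is a description of these letters, and no match says only that they are not in this window.

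The arrays differed in the spread of their signal, and the members' values move with it. The SD of log2 signal over all probe sets of an array was 2.14 ± 0.094 in vehicle alone, 2.16 ± 0.042 in estradiol alone, 1.94 ± 0.11 in vehicle with astrocytes and 1.89 ± 0.24 in estradiol with astrocytes (mean ± SD, n = 3 arrays each). The lowest spreads, 1.62 and 1.82, belonged to replicate 2 of estradiol with astrocytes and replicate 2 of vehicle with astrocytes. On an array with a smaller spread, bright genes sit lower and dim genes sit higher. Results below are therefore also given without these 2 arrays and from a fit that holds the array SD as a covariate, although the array SD and co-culture go together and the fit can separate them only in part.

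The labelled line was checked by its markers. The mean of 6 genes that mark MDA-MB-231 cells (VIM, CD44, AXL, EGFR, CAV1 and ANXA1) lay between 8.47 and 10.3 on the log2 scale in all 12 arrays. That of 4 genes expected to be low in it (ESR1, PGR, CDH1 and ERBB2) lay between 3.73 and 4.70. ERBB2 was the brightest of these 4, with group means from 5.58 to 5.93, above the median gene level of 5.11. With co-culture, as the mean of both treatments, 3 of the 6 (EGFR, CD44 and VIM) fell and 0 rose, and of the 4 low genes ESR1 rose and 0 fell. With the array SD in the fit CAV1 was the only one of these 10 called, as higher. Although the sort selected EGFP-positive cells, genes that mark other cells moved with co-culture in the same comparison. There 24.5% of all genes were called higher and 23% lower. The arrays are human and the astrocytes were mouse cells, so what these probes read of mouse RNA is not known. Some of these markers were dim in vehicle alone, such as AIF1 at 2.43 and P2RY12 at 2.62, while CD68 was at 8.44. Of 9 microglia and macrophage markers 5 rose and 0 fell, and 3 of 5 markers of B and dendritic cells rose. Of 7 astrocyte markers 4 rose (such as GFAP, by 0.95, adjusted p = 0.0125) and 2 fell, SLC1A3 and GJA1. The group means of SLC1A3 were 6.49 and 6.52 without astrocytes (vehicle, estradiol) and 5.57 and 5.56 with them. Those of GJA1 were 6.11 and 6.41, then 5.56 and 5.67. The array means of the microglia and macrophage markers lay between 3.75 and 4.09 in vehicle alone and between 3.84 and 3.97 in estradiol alone, against 4.18 to 4.64 and 4.11 to 5.14 with astrocytes. SPI1, a transcription factor of myeloid cells, showed the largest rise of these 9, by 1.28 (adjusted p = 0.00566), and by 0.53 (adjusted p = 0.0417) with the array SD in the fit. It was the only one of the 9 called in that fit: AIF1 was then at 0.25, P2RY12 at 0.10, ITGAM at 0.08, CX3CR1 at −0.16 and CSF1R at −0.30. GFAP was at 0.21 (adjusted p = 0.313), and of the 7 astrocyte markers 0 were called higher and 1 lower. Of all 31 markers 2 were called higher and 1 lower, 9.68% against 14.4% of all genes. Their part in the results on the members was not tested. In sorted bulk samples, fewer cells of a type and less RNA per cell cannot be told apart.

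**Figure D1:**
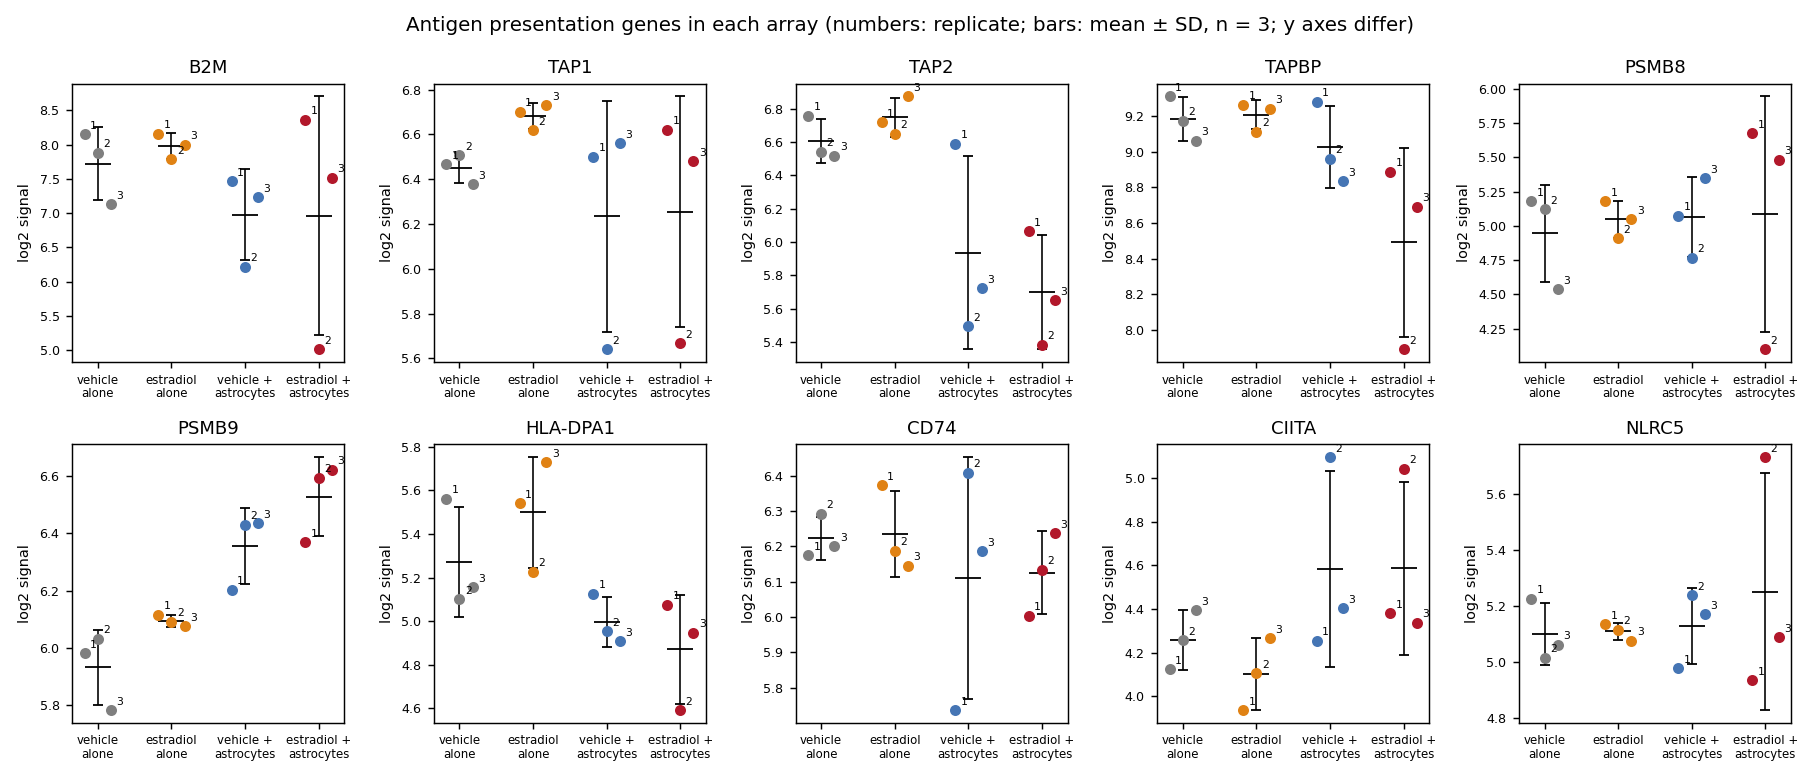
Log2 signal of each member (vertical axes, which differ between panels) in the 4 groups (horizontal axis). Points are arrays with their replicate number, and bars give the mean ± SD of 3 arrays. PSMB9 lies higher in every co-culture array than in every array without astrocytes, and the arrays numbered 2 with astrocytes hold the lowest B2M values, 5.01 and 6.22.

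B2M varied most of the members, over a range of 3.35 on the log2 scale, and its groups overlapped. Its log2 signal was 8.16, 7.88 and 7.13 in vehicle alone (replicates 1, 2 and 3) and 8.16, 7.79 and 8.0 in estradiol alone. With astrocytes it was 7.47, 6.22 and 7.24 under vehicle and 8.37, 5.01 and 7.52 under estradiol. The highest and the lowest of all 12 values thus came from the same group. In the order of the group means, estradiol alone (7.98 ± 0.18) stood first and vehicle alone (7.72 ± 0.53) second. The co-cultures under vehicle (6.98 ± 0.66) and under estradiol (6.96 ± 1.74) followed (SD, n = 3 each). Vehicle with astrocytes differed from vehicle alone by −0.75, more than either SD, although their arrays overlapped. Other neighbours in this order differed by less than the larger SD.

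Of the transporter subunits, TAP1 kept its level on most co-culture arrays and TAP2 was lower on most. TAP1 measured 6.47, 6.51 and 6.38 in vehicle alone, 6.70, 6.62 and 6.73 in estradiol alone, 6.5, 5.64 and 6.56 in vehicle with astrocytes and 6.62, 5.67 and 6.48 in estradiol with astrocytes. Only the co-culture arrays numbered 2 fell clearly below the rest. TAP2 measured 6.76, 6.54 and 6.52 in vehicle alone and 6.72, 6.65 and 6.88 in estradiol alone. With astrocytes TAP2 was 6.59, 5.50 and 5.72 under vehicle and 6.07, 5.38 and 5.65 under estradiol. Replicate 1 of vehicle with astrocytes is the only co-culture array within the range of the arrays without astrocytes. By group mean TAP2 was 6.75 ± 0.11 in estradiol alone, 6.61 ± 0.13 in vehicle alone, 5.94 ± 0.58 in vehicle with astrocytes and 5.70 ± 0.34 in estradiol with astrocytes (SD, n = 3 each). The treatments differed by 0.14 without astrocytes and by 0.24 with them, which is close to or within the SDs.

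Tapasin was lowest in estradiol with astrocytes. TAPBP measured 9.31, 9.17 and 9.06 in vehicle alone, 9.26, 9.11 and 9.24 in estradiol alone, 9.28, 8.96 and 8.84 in vehicle with astrocytes, and 8.89, 7.89 and 8.69 in estradiol with astrocytes. All 3 arrays of estradiol with astrocytes lay below all 6 arrays without astrocytes, while those of vehicle with astrocytes overlapped them.

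The immunoproteasome pair had unequal ranges over the 12 arrays, 1.57 for PSMB8 and 0.84 for PSMB9. PSMB8 measured 5.18, 5.12 and 4.54 in vehicle alone, 5.18, 4.91 and 5.05 in estradiol alone, 5.07, 4.77 and 5.35 in vehicle with astrocytes, and 5.67, 4.10 and 5.48 in estradiol with astrocytes. Its group means differed by less than the spread within groups, and as with B2M the highest and lowest values came from estradiol with astrocytes. PSMB9 measured 5.98, 6.03 and 5.78 in vehicle alone, 6.12, 6.09 and 6.08 in estradiol alone, 6.20, 6.43 and 6.44 in vehicle with astrocytes, and 6.37, 6.59 and 6.62 in estradiol with astrocytes. PSMB9 was the only member whose 6 co-culture arrays all lay above its 6 arrays without astrocytes, as 12.2% of all genes did. Its group means were 5.93 ± 0.13, 6.09 ± 0.020, 6.36 ± 0.13 and 6.53 ± 0.14 in the same order (SD, n = 3 each).

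The class II genes had unequal ranges, 1.14 for HLA-DPA1 and 0.67 for CD74. HLA-DPA1 measured 5.56, 5.10 and 5.16 in vehicle alone, 5.54, 5.23 and 5.73 in estradiol alone, 5.13, 4.95 and 4.91 in vehicle with astrocytes, and 5.08, 4.59 and 4.95 in estradiol with astrocytes. The co-culture arrays were the lower ones, with an overlap at replicate 1 of vehicle with astrocytes. CD74, with the smallest range of the 10 members, ran from 5.74 to 6.41, and both extremes were in vehicle with astrocytes. Its group means were 6.22 ± 0.061, 6.24 ± 0.12, 6.11 ± 0.34 and 6.13 ± 0.12 (SD, n = 3; in the order of groups used for PSMB9), which do not differ beyond their spread.

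The transactivators were highest in the co-culture arrays numbered 2. CIITA measured 4.12, 4.26 and 4.40 in vehicle alone, 3.94, 4.11 and 4.27 in estradiol alone, 4.26, 5.10 and 4.40 in vehicle with astrocytes, and 4.38, 5.04 and 4.34 in estradiol with astrocytes. NLRC5 measured 5.23, 5.01 and 5.06, then 5.14, 5.11 and 5.08, then 4.98, 5.24 and 5.17, then 4.93, 5.73 and 5.09 in the same order of groups. The values 5.10 and 5.04 of CIITA and 5.73 and 5.24 of NLRC5 are the highest of their 12 arrays, and all 4 came from replicate 2 with astrocytes. The remaining 4 co-culture values of CIITA lay between 4.26 and 4.40.

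Estradiol without astrocytes changed no member past the threshold. In limma's moderated test, with Benjamini-Hochberg adjustment over the 17958 genes, 0 of the 10 members and 0% of all genes had an adjusted p under 0.05, and 0 members and 1 gene in all (0.00557%) had an unadjusted p under 0.05. The differences of 9 members were above 0, between 0.0081 (NLRC5) and 0.26 (B2M), and CIITA was at −0.16. Their median was 0.12, against 0.014 for all genes. TAP1 (0.23, 95% interval −0.41 to 0.87) and PSMB9 (0.16, interval −0.21 to 0.54) were higher in all 3 estradiol arrays than in all 3 vehicle arrays, 2 of 10 members where 1.94% of all genes were so placed (3.21% when placement lower is counted too). Adjusted p was 1 for each member.

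With astrocytes present, estradiol changed no member either. Again 0 members and 0% of all genes passed, and 0 members and 142 genes (0.791%) had an unadjusted p under 0.05. TAPBP had the largest difference, −0.53 (95% interval −1.09 to 0.018, unadjusted p = 0.0568, adjusted p = 1), and its 3 arrays under estradiol overlapped those under vehicle. No member's arrays were fully apart, as those of 2.18% of all genes were. PSMB9 was 0.17 higher (interval −0.20 to 0.55), beside 0.16 without astrocytes. The median of the 10 differences was 0.0085. The interaction, which asks whether estradiol acts differently beside astrocytes, called 0 members and 0% of all genes (0 members and 31 genes, 0.173%, at an unadjusted p under 0.05). It ranged over the members from −0.56 (TAPBP, interval −1.34 to 0.22) to 0.16 (CIITA, interval −0.66 to 0.97), intervals that leave room for a difference of either sign.

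Under vehicle, co-culture with astrocytes called 0 of the 10 members, and 10 of all genes (0.0557%). The largest differences were −0.75 for B2M (SE 0.68, adjusted p = 0.435), −0.67 for TAP2 (SE 0.28, adjusted p = 0.154) and 0.42 for PSMB9 (SE 0.17, adjusted p = 0.147). The rest lay between −0.28 (HLA-DPA1) and 0.33 (CIITA). The median was −0.13, against 0.059 for all genes. PSMB9 was the only member whose arrays did not overlap between the groups, as 41.8% of all genes did not. Leaving out 1 array called TAP2 without replicate 1 of vehicle with astrocytes (−1.0, adjusted p = 0.0351) and PSMB9 without replicate 2 of estradiol with astrocytes (0.42, adjusted p = 0.0492).

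Under estradiol, TAP2 was lower with astrocytes, by 1.05 on the log2 scale (2.07-fold, SE 0.28, limma adjusted p = 0.0412), 1 of 10 members where 13.2% of all genes were called, 8.15% as lower. TAPBP (−0.72, adjusted p = 0.0668), HLA-DPA1 (−0.63, adjusted p = 0.0634) and PSMB9 (0.43, adjusted p = 0.0841) did not pass. The arrays of 5 members did not overlap, higher for PSMB9 and CIITA and lower for TAP2, TAPBP and HLA-DPA1, against 50.9% of all genes. B2M differed by −1.02 (SE 0.68, adjusted p = 0.238), and by −0.043 without replicate 2 of estradiol with astrocytes. The TAP2 call rests on few arrays: it held in 3 of 12 fits that left out 1 array each (adjusted p from 0.00984 to 0.155). It was lost without any 1 of the 6 arrays grown alone and without replicates 2 or 3 of estradiol with astrocytes. It was also lost without replicate 3 of vehicle with astrocytes. Without replicate 1 of estradiol with astrocytes it was joined by B2M, TAPBP, PSMB9 and HLA-DPA1. The number of all genes called also varied widely between these 12 fits, with the range given in the last paragraph.

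Averaging the effect of astrocytes over both treatments sets 6 arrays against 6 and called 3 of the 10 members, where 47.5% of all genes were called, 24.5% higher and 23% lower. TAP2 fell by 0.86 (1.81-fold, SE 0.20, 95% interval −1.29 to −0.43, limma adjusted p = 0.00892). HLA-DPA1 fell by 0.45 (1.37-fold, SE 0.15, adjusted p = 0.0326). PSMB9 rose by 0.43 (1.35-fold, SE 0.12, interval 0.16 to 0.69, adjusted p = 0.0178). A share of 3 in 10 is below that of all genes, so the members as a group do not stand out for being called.

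The other 7 did not pass in this comparison. TAPBP (−0.44, adjusted p = 0.0615) and CIITA (0.40, adjusted p = 0.0873) came nearest. B2M had the largest difference of all, −0.88, with an SE of 0.48 and an adjusted p of 0.135. TAP1 was at −0.32 (adjusted p = 0.196), CD74 at −0.11, NLRC5 at 0.09 and PSMB8 at 0.08. The median of the 10 was −0.22, against 0.065 for all genes. Whether TAP1 and TAP2 changed unequally was not tested.

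**Figure D2:**
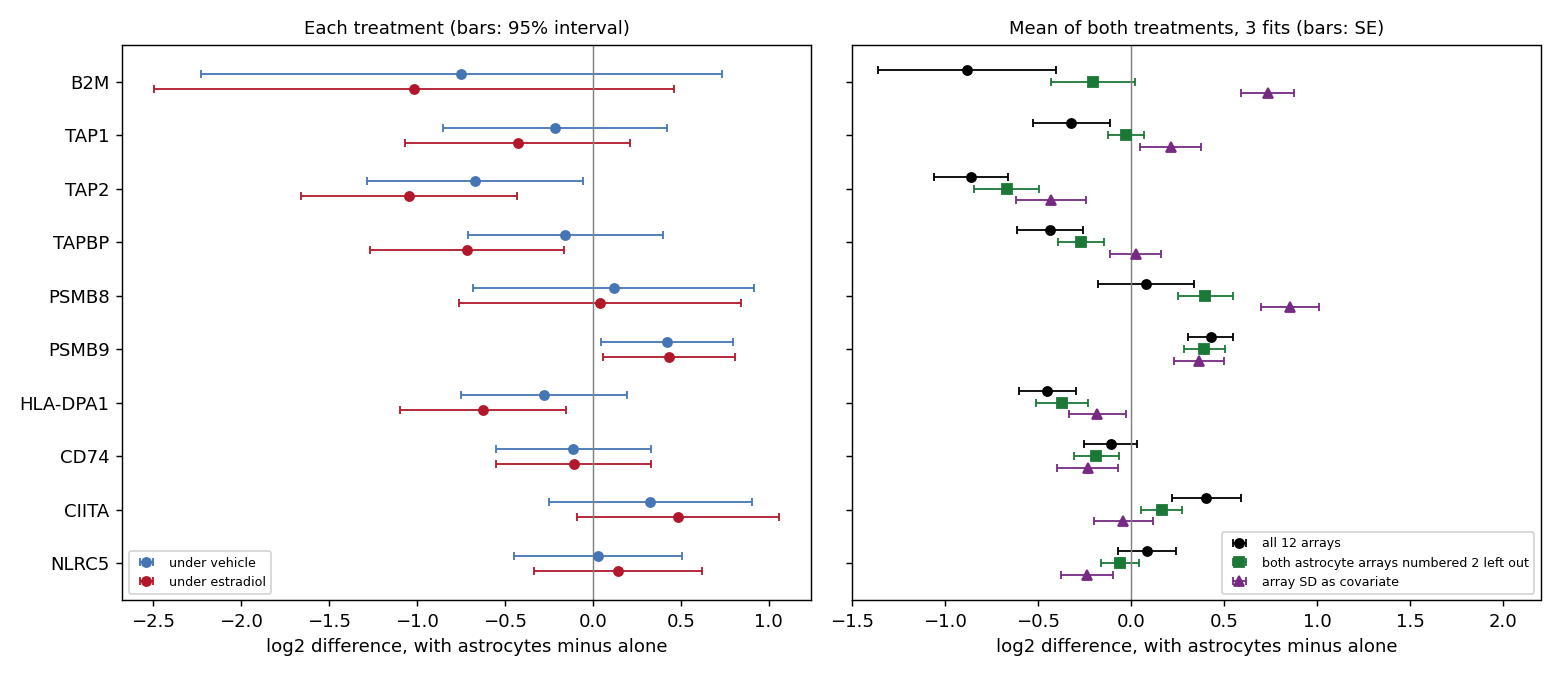
Log2 difference between cells with and without astrocytes (horizontal axis) for each member (vertical axis). The left panel gives each treatment with its 95% interval, and the right panel the mean of both treatments with its SE in 3 fits. B2M moves from −0.88 to 0.73 and PSMB8 from 0.08 to 0.85 when the array SD is a covariate, while TAP2 stays below 0 and PSMB9 above 0 in all 3 fits.

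Co-culture arrays of the same number deviated together, so the 6 of them are not fully independent. With such arrays as a random block, TAP2 (adjusted p = 0.0121) and PSMB9 (adjusted p = 0.0316) kept their calls and HLA-DPA1 lost its call (adjusted p = 0.057).

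How firm these calls are differs by gene. TAP2 and PSMB9 kept their call in all 12 fits that left out 1 array, with adjusted p from 0.00189 to 0.0286 and from 0.00956 to 0.0449. HLA-DPA1 kept it in 6 of 12 (adjusted p up to 0.0875), losing it without replicates 1 or 3 of estradiol alone, replicates 1 or 2 of vehicle alone, or replicates 2 or 3 of vehicle with astrocytes. Without both co-culture arrays numbered 2, TAP2 differed by −0.67 (adjusted p = 0.0142) and PSMB9 by 0.39 (adjusted p = 0.0182). HLA-DPA1 then differed by −0.37 (adjusted p = 0.0543) and B2M by −0.21 (adjusted p = 0.455). In that fit 44.8% of all genes were called. B2M was called without replicate 1 of estradiol with astrocytes (−1.23, adjusted p = 0.0235), and TAPBP without that array or replicate 1 of vehicle with astrocytes. With the array SD as a covariate none of the 3 calls held: TAP2 was at −0.43 (adjusted p = 0.144), PSMB9 at 0.36 (adjusted p = 0.0871) and HLA-DPA1 at −0.18 (adjusted p = 0.46).

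That same fit called B2M and PSMB8, both higher with astrocytes. B2M was higher by 0.73 (SE 0.14, adjusted p = 0.00809), the opposite sign of its plain difference, and PSMB8 by 0.85 (SE 0.16, adjusted p = 0.00705). In each treatment taken alone the covariate gave 0.65 and 0.82 for B2M (adjusted p = 0.0363 under vehicle and 0.0389 under estradiol) and 0.79 and 0.92 for PSMB8 (adjusted p = 0.0297 and 0.0385). These were 2 of 10 members where 14.4% of all genes were called for the mean of both treatments, 6.49% under vehicle and 2.61% under estradiol. PSMB8 was also at 0.40 (adjusted p = 0.0515) without the co-culture arrays numbered 2. The direction of B2M therefore differs between fits and is not settled by these arrays.

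**Figure D3:**
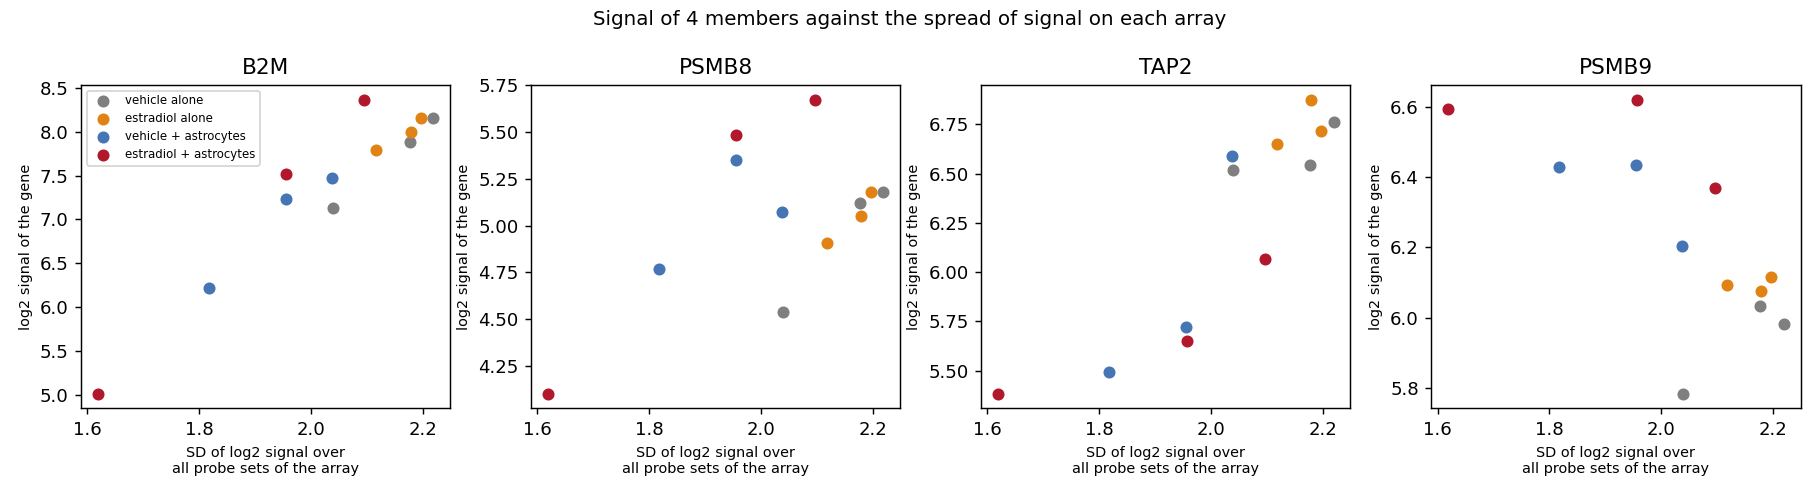
Log2 signal of B2M, PSMB8, TAP2 and PSMB9 (vertical axes) against the SD of log2 signal over all probe sets of the same array (horizontal axes), 1 point per array, coloured by group. B2M runs from 5.01 on the array with the smallest SD, 1.62, to between 7.79 and 8.16 on the 5 arrays with an SD from 2.12 to 2.22, and PSMB9 runs the other way.

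Each immunoproteasome subunit was also set against the constitutive subunit it replaces, within each array, which takes out what moves both genes of a pair alike: PSMB8 against PSMB5, PSMB9 against PSMB6 and PSMB10 against PSMB7. In each pair the first gene was far dimmer, such as PSMB9 at 5.93 and PSMB6 at 10.1 in vehicle alone. A smaller array spread, where bright genes sit lower and dim genes higher, is therefore not taken out by these pairs. These pairs, and PSMB9 against its neighbour TAP1, were chosen after values had been seen, so they are described and not tested. The sign and size of such a difference on 1 array depend on the probes, and only its change between arrays is read here.

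PSMB8 minus PSMB5 was −3.50, −3.08 and −3.20 in vehicle alone, −3.02, −3.41 and −3.39 in estradiol alone, −2.65, −2.63 and −2.64 in vehicle with astrocytes, and −2.77, −2.63 and −2.59 in estradiol with astrocytes. All 6 co-culture arrays lay above all 6 others, and they lay close together, the arrays numbered 2 included. The mean went from −3.27 ± 0.20 to −2.65 ± 0.062 (SD, n = 6 each), higher by 0.62. The difference between cultures was 0.62 under vehicle, 0.61 under estradiol, 0.61 without the co-culture arrays numbered 2 and 0.57 with the array SD in the fit. It concerns the pair, and does not say which of the genes differed.

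PSMB9 minus PSMB6 was higher by 0.98, from −4.13 ± 0.16 to −3.15 ± 0.48 (SD, n = 6 each), and again no array overlapped. This difference was 0.69 without the arrays numbered 2 and 0.36 with the array SD in the fit. PSMB10 minus PSMB7 did not separate the cultures (0.31), and replicate 2 of estradiol with astrocytes, at −1.45, stood far above the other 11 arrays, which lay between −3.62 and −3.22. PSMB9 minus TAP1 was higher by 0.75, by 0.42 without the arrays numbered 2 and by 0.15 with the array SD in the fit. Its arrays did not overlap. The arrays of PSMB9 by itself did not overlap either, which bears on both pairs that hold it.

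**Figure D4:**
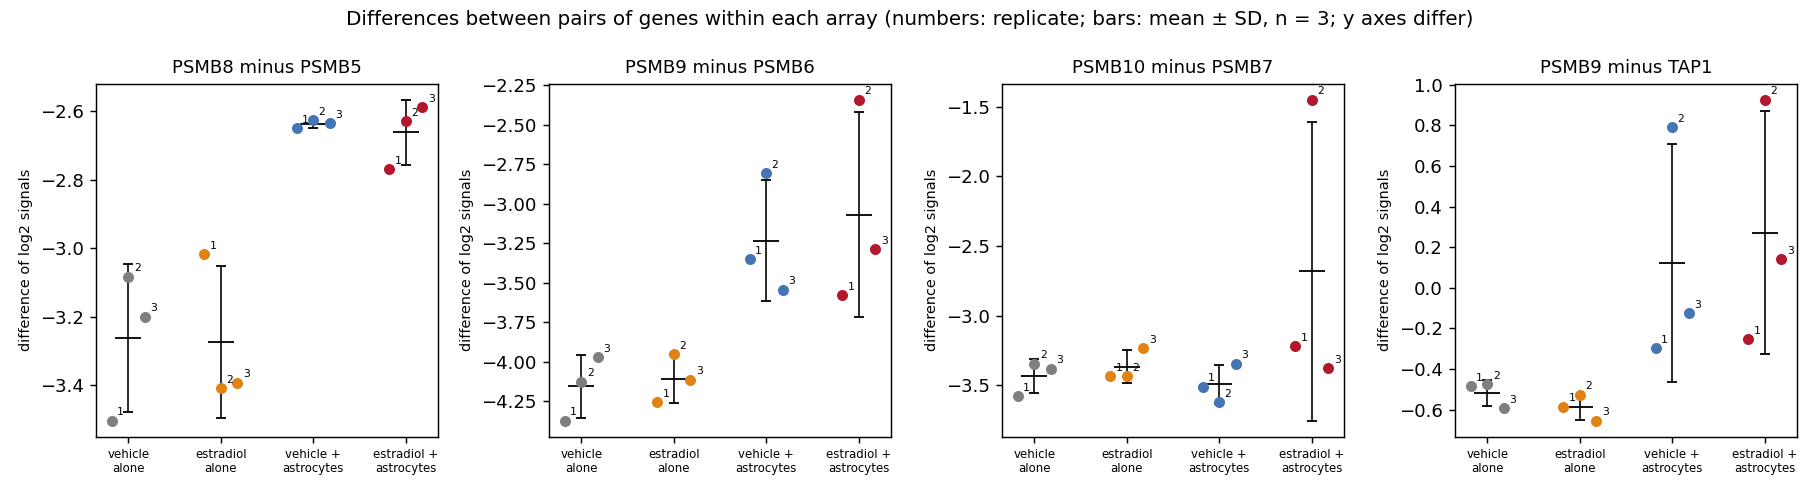
Difference of log2 signals between 2 genes on the same array (vertical axes, which differ between panels) by group (horizontal axis), with replicate numbers at the points and bars for the mean ± SD of 3 arrays. PSMB8 minus PSMB5 lies between −2.77 and −2.59 in all co-culture arrays and between −3.50 and −3.02 in the others.

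Of 47 other genes of the pathway, 41 were measured. Under vehicle 0 of them were called beside astrocytes, where 0.0557% of all genes were. Under estradiol 3 were, 7.32% against 13.2% of all genes: ERAP1 (−1.75, adjusted p = 0.0338), an aminopeptidase that trims peptides in the endoplasmic reticulum, RFX5 (−1.29, adjusted p = 0.0417), a subunit of the complex that binds the X box, and SOCS1 (1.48, adjusted p = 0.0436), an inhibitor of interferon signalling. Averaged over both treatments, 3 rose and 10 fell, 31.7% of the 41 where 47.5% of all genes were called, and their median difference was −0.31 against 0.065 for all genes. In the same comparison without the co-culture arrays numbered 2, 9 rose and 9 fell, 43.9% against 44.8% of all genes called. With the array SD as a covariate 4 rose and 1 fell, 12.2% against 14.4% of all genes.

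Of 9 measured heavy chains and loading factors 5 fell and 0 rose, where 23% of all genes fell and 24.5% rose. With the array SD in the fit 1 fell, where 14.4% of all genes were called in either direction. Of 4 measured class I heavy chains HLA-B fell (−1.0, adjusted p = 0.0425) and HLA-C (−0.42, adjusted p = 0.0721), HLA-F and HLA-G did not pass. These genes are near-identical over long stretches, so their probes may share signal and their separate values are uncertain. With the array SD in the fit HLA-B was at 0.12 (adjusted p = 0.767), HLA-C at 0.05 and HLA-G at 0.22. Of 5 loading and trimming genes 4 fell: ERAP1 by 1.56 (adjusted p = 0.00384), the disulfide isomerase PDIA3 by 1.36 (adjusted p = 0.0129), the chaperone calnexin (CANX) by 1.21 (adjusted p = 0.0122) and ERAP2 by 0.73 (adjusted p = 0.034). The chaperone calreticulin (CALR) was at −0.26 (adjusted p = 0.185), and at 0.14 with the array SD. ERAP1 alone of these 5 also passed with the array SD in the fit, at −1.04 (adjusted p = 0.0243).

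None of the other proteasome genes on these lists passed for the mean of both treatments, where 47.5% of all genes did. Of 4 immunoproteasome partners, PSME2 was at −1.02 (adjusted p = 0.0646) and PSME1 at 0.25 (adjusted p = 0.286), although both encode subunits of the same activator ring. PSMB10, the remaining immunoproteasome catalytic subunit, was at 0.10 and the assembly factor POMP at −0.32. The constitutive subunits PSMB6 (−0.55, adjusted p = 0.0504), PSMB5 (−0.54, adjusted p = 0.118) and PSMB7 (−0.21) were all below 0. With the array SD in the fit PSME1 (0.69, adjusted p = 0.0258) and PSMB7 (0.84, adjusted p = 0.0292) passed as higher. In that fit 14.4% of all genes were called.

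Of 11 measured class II genes 2 rose and 0 fell, where 24.5% of all genes rose. HLA-DOA, a chain of the molecule that restrains peptide exchange, rose by 1.21 (adjusted p = 0.0106) and HLA-DQA1 by 0.65 (adjusted p = 0.0228). LGMN, a lysosomal protease, had the largest of the negative values, −0.82 (adjusted p = 0.116), and HLA-DRA was at −0.12. With the array SD in the fit HLA-DOA was at 0.40 (adjusted p = 0.249) and HLA-DQA1 at 0.16 (adjusted p = 0.556). Some markers of cells that make class II molecules rose in the same arrays: 5 of 9 of microglia and macrophages and 3 of 5 of B and dendritic cells. CD68 went the other way, with group means of 8.44 and 8.49 without astrocytes (vehicle, estradiol) and 8.24 and 8.01 with them. So did CD83, at 5.32 and 5.30, then 5.21 and 5.06. With the array SD in the fit 1 of the 9 and 0 of the 5 were called, against 14.4% of all genes. The part of these cells here was not tested.

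Of 7 measured factors that bind class I and class II promoters with the transactivators, 2 fell and 0 rose, where 23% of all genes fell. The CCAAT-binding subunit NFYA fell by 1.59 (adjusted p = 0.00942) and RFX5 by 1.11 (adjusted p = 0.0079), while RFXANK, another subunit of the X box complex, was at 0.41 (adjusted p = 0.0659). RFXANK passed in the fit with the array SD (0.71, adjusted p = 0.0212), where RFX5 was at −0.45 (adjusted p = 0.134) and NFYA at −0.41 (adjusted p = 0.172). Of 7 measured interferon-gamma signalling genes the kinases JAK1 (−1.61, adjusted p = 0.0208) and JAK2 (−0.63, adjusted p = 0.0159) and the factor IRF2 (−0.63, adjusted p = 0.0417) fell, and SOCS1 rose by 1.19 (adjusted p = 0.0112). The receptor chains IFNGR1 and IFNGR2 and the factor IRF1 did not pass, in a comparison where 24.5% of all genes rose and 23% fell. With the array SD in the fit these 4 calls ended, with JAK1 at −0.089 (adjusted p = 0.846), JAK2 at −0.40 (adjusted p = 0.184), IRF2 at −0.019 (adjusted p = 0.955) and SOCS1 at 0.30 (adjusted p = 0.269), and IRF1 passed as higher, at 0.83 (adjusted p = 0.0491).

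**Figure D5:**
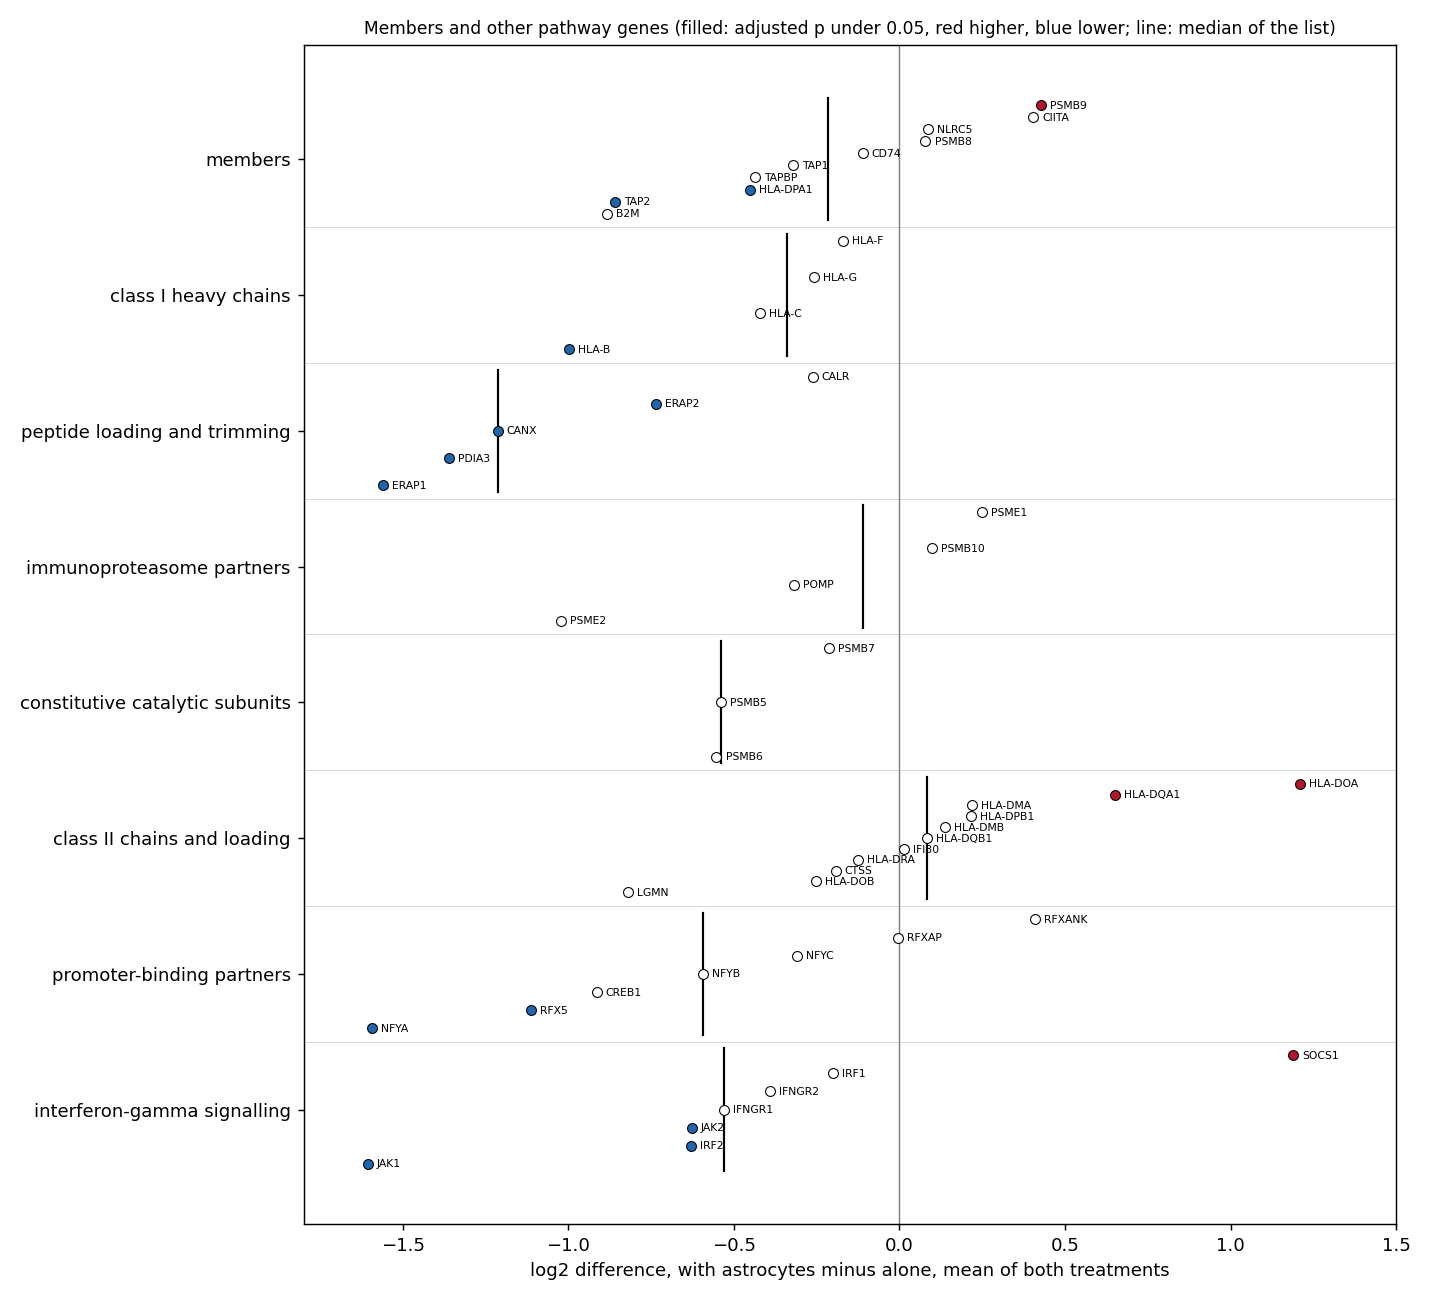
Log2 difference between cells with and without astrocytes, as the mean of both treatments (horizontal axis), for the members and 7 lists of other pathway genes (vertical axis, 1 point per gene). Filled points passed an adjusted p of 0.05, red for higher and blue for lower, and the vertical line in each row is the median of its list. Of the members TAP2 and HLA-DPA1 are filled blue and PSMB9 red.

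Other probe sets of the members give a check within the arrays. The members have 22 probe sets in all: B2M, CD74, CIITA and NLRC5 have 1 each and the other 6 genes have 3 each. The 3 of TAP1, of PSMB8 and of PSMB9 hold equal values on every array, so they add nothing. The other probe sets of TAP2 fell by 0.92 (adjusted p = 0.00817) and 0.99 (adjusted p = 0.00647) for the mean of both treatments. The remaining HLA-DPA1 probe sets, equal to each other, were at −0.23 (adjusted p = 0.171), and on replicate 2 of estradiol with astrocytes they read 5.21 where the brightest read 4.59, so the fall of HLA-DPA1 holds on 1 of its 3 probe sets. The dimmest probe set of TAPBP fell by 0.55 (adjusted p = 0.0267), while its brightest did not pass.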

How the data were processed

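Gene expression was measured on 12 single-channel Affymetrix Human Gene ST arrays. The deposited values are log2 signals, and RMA and Partek are the tools given, per the submitters' processing notes, with no version, role or order. The genome build is not given in the sources used here. Of 33297 probe sets, 19181 carry 1 symbol, 2055 several and 12061 none, and the highest-mean probe set per symbol left 17958 genes, with no filter on low values. limma 3.58.1 in R 4.3.3 (lmFit on group means of the 12 arrays, then contrasts.fit and eBayes) tested 6 comparisons, two-sided, with Benjamini-Hochberg adjustment over all genes and a threshold of 0.05. The pipeline was tested on simulated data. A permutation test of 3 arrays against 3 cannot go below p = 0.1, and the number of arrays limits precision.

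The members and lists were chosen with earlier results of these data known. Named were all members and, per list, up to 4 genes past the threshold, or else up to 2 with the smallest p, and those of opposite direction; other genes named with values (HLA-DRA, PSMB7, POMP, CALR, PSMB10, IRF1) were chosen after their values were seen, as were the within-array pairs. Alternatives were a replicate block, quantile normalization, median centring, a level filter, averaged probe sets, the array SD as a covariate, the compared groups only and each array left out; leaving out both co-culture arrays numbered 2 the dimmest probe set, and same-numbered co-culture arrays as a random block (limma's duplicateCorrelation, correlation 0.489) were added after seeing the data. The labels do not say what a replicate number marks. Between the co-culture groups, same-numbered arrays deviated together (r = 0.789, 0.756 and 0.214), although for number 3 an array of another number correlated more (r = 0.396). The numbers were taken as pairs there, and the paired fit over those 6 arrays called 0 members.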

Additional observations from a re-analysis of the deposited data

Results flagged for a closer look

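Probe sets that carry several symbols were left out of the comparisons. Of 17 such probe sets that name a member or a gene of the pathway lists, 2 read higher on all 6 co-culture arrays than on all 6 arrays without astrocytes. Of all genes tested, 12.2% were so placed, so this count does not stand out. Both name HLA-DQA2 and HLA-DQA1, alpha chains of class II molecules, and the mean over both treatments was 0.57 higher on probe set 8118564 and 0.65 higher on probe set 8178205 (log2 scale). Their highest reading was 4.11, and on probe set 8118564 the arrays without astrocytes lay between 2.52 and 3.07, so both are dim. Dim genes sit higher on arrays with a smaller spread, as described above. The probe set of HLA-DQA1 alone rose by 0.65 as well. In the same arrays 5 of 9 microglia and macrophage markers rose, SPI1 the most, by 1.28, while CD68 was lower. In that comparison 24.5% of all genes rose. With the array SD in the fit SPI1 was the only 1 of the 9 called, where 14.4% of all genes were. The part of these markers in the HLA-DQA values was not tested.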

How the results depend on the processing

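The counts of called members were 0 under every alternative for both estradiol comparisons and the interaction, where all genes gave 0 calls, or 1 for estradiol beside astrocytes with the array SD or the random block. For astrocytes under vehicle (0 members) the count was 2 with the array SD as a covariate and 0 to 1 with each array left out. For astrocytes under estradiol (1 member) it was 3 with the replicate block, 0 after quantile normalization, 2 with the array SD, 0 with the compared groups only and 0 to 5 with each array left out. For the mean of both treatments (3 members) it was 5 with the replicate block and 2 to 5 with each array left out. B2M reversed with the array SD, to 0.65 under vehicle, 0.82 under estradiol and 0.73 for the mean.

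Over all 12 arrays the replicate block added calls under estradiol for TAPBP (−0.72, adjusted p = 0.0334) and HLA-DPA1 (−0.63, adjusted p = 0.0289). For the mean it added TAPBP (−0.44, adjusted p = 0.0376) and CIITA (0.40, adjusted p = 0.05). It changed no other call of a member. Same-numbered arrays with and without astrocytes deviated together for some numbers only. For numbers 1, 2 and 3, r was 0.582, −0.436 and 0.065 under vehicle. Under estradiol r was 0.538, 0.485 and −0.016. Quantile normalization ended the calls of TAP2 under estradiol (−0.62, adjusted p = 0.0808) and of HLA-DPA1 for the mean (−0.39, adjusted p = 0.0617). With the compared groups only, TAP2 under estradiol was at −1.05 (adjusted p = 0.116). The mean of all probe sets of a gene put HLA-DPA1 at −0.31 (adjusted p = 0.0749) and TAPBP at −0.50 (adjusted p = 0.0456). Centring changed no call. The level filter removed CIITA and PSMB8 and changed no call of the other 8 members. The random block for same-numbered co-culture arrays ended the call of HLA-DPA1 for the mean (−0.45, adjusted p = 0.057) and no other. The causes were not tested.

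Counts over all genes moved more. Under vehicle 10 genes became 2583 with the replicate block, 5 above the median level, 1166 with the array SD, 1594 with the compared groups only, 1004 without both co-culture arrays numbered 2, 101 with the random block, and 2 to 6107 with each array left out. Under estradiol 2366 became 6691 with the replicate block, 529 after quantile normalization, 469 with the array SD, 3598 with the random block, 0 with the compared groups only and 3 to 9222 with each array left out. For the mean 8528 became 4118, 2584 and 4770 to 11339 with the level filter, the array SD and each array left out. With 3 arrays a group, differences within the printed SEs cannot be told from 0.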
